A study of Danio rerio with 12 samples.

Results

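The lysosome is the acidic compartment in which a cell breaks down proteins, lipids and sugars taken up from outside or delivered from within. A proton pump in its membrane, the vacuolar ATPase (V-ATPase), burns ATP in a soluble V1 part and passes protons through a membrane V0 part, and the acid it makes is what cathepsins and most other lysosomal hydrolases need to work. Highly glycosylated membrane proteins such as the LAMPs line the inside of the membrane, and NPC1 and NPC2 pass cholesterol out. In the zebrafish embryo the same machinery digests yolk proteins, and lysosomes are abundant in macrophages, which take up debris.

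The genes described here are the V-ATPase subunits and accessory proteins, the cathepsins, and other hydrolases, activators and membrane proteins linked to the lysosome. The rule used symbols and no measured value, but the genes were chosen with earlier results of these data known. The place of each protein in the cell was not checked, so lysosomal here means chosen by these symbols. The rule took every probe set of the Affymetrix Zebrafish Genome Array that was annotated with 1 gene of a matching symbol. Matching symbols started with atp6v, atp6ap, npc or man2b, with cts and a letter, or with lamp or neu and a digit, or were among 20 listed symbols. The rule found 48 probe sets of 45 genes among the 15502 probe sets tested, of which 10795 carried 1 gene name. These were 16 V-ATPase probe sets of 15 genes, 16 protease probe sets of 14 genes, 5 probe sets for other hydrolases, 3 for saposins and granulins, and 8 for membrane and sterol proteins. For 11 of the 20 listed symbols (hexa, hexb, galca, gaa, gba, glb1, gla, gns, gusb, scarb2b and tpp1) no probe set carried that symbol alone, so several glycosidases whose loss causes storage disease in humans were not analysed here, nor was any probe set for subunit A of V1 or subunit a of V0. All 48 probe sets entered the tests, with no filter on dim signals.

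The groups were 6 pools of morphine-exposed embryos and 6 pools of control embryos, all wild-type AB zebrafish collected at 24 hours post fertilization (hpf). Morphine, an opioid receptor agonist, was added to the embryo medium at 10 nM from 5 hpf onwards, and control embryos were kept in the same medium with no treatment. Each array held RNA from a pool of about 100 whole embryos, so a signal averages all tissues, and fewer cells of a type cannot be told apart from less RNA in each cell. The sources used here do not say whether the pools came from separate clutches, and the p-values measure the spread between these pools. Values are log2 signals after robust multi-array averaging (RMA), a fold change is the mean of 6 morphine arrays minus the mean of 6 control arrays on that scale, and a probe set was called when its limma p-value, Benjamini-Hochberg adjusted over all 15502 probe sets, was under 0.10.

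Over the whole array 1062 probe sets were called (6.85%), 485 higher (3.13%) and 577 lower (3.72%) with morphine, and in 559 (3.61%) the groups did not overlap. Array medians lay between 5.81 and 5.86, and any pair of arrays correlated at 0.990 or more across probe sets. Control replicates 1 and 2 and morphine replicate 1 stood apart from the other 9 arrays on the first principal component. The difference between the 3′ and 5′ actin probe sets, a sign of RNA integrity, ran from 3.51 to 5.32 in morphine arrays and from 3.58 to 4.93 in control arrays (exact permutation p = 0.647, two-sided).

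Of the 48 lysosomal probe sets, 8 were called (16.7%), against 6.85% of all probe sets. Galactosylceramidase (galcb), a cathepsin S paralog (ctss2.2), the membrane proteins lamp1a and lamp2 and the alpha-mannosidase man2b1 were higher with morphine, and cd68, cathepsin F (ctsf) and granulin b (grnb) were lower. All 8 lay outside the V-ATPase, where none of 16 probe sets was called, a count near the 6.85% of all probe sets. The changes were small: the largest was 1.34-fold, and the 48 fold changes ran from -0.30 to 0.42 with a median of 0.01 and a median size of 0.09, beside a median size of 0.07 over all probe sets. Signs were divided, with 26 probe sets above 0 and 22 below. In 7 of the 48 (14.6%, against 3.61% of all) the morphine and control arrays did not overlap. SAM, the permutation-based Significance Analysis of Microarrays, also called 8 of the 48 (7.28% of all), and 14 had an unadjusted p under 0.05 (29.2%, against 16.6% of all). With the replicate number of the labels as a block, limma called 12 of them, 8 higher and 4 lower, where it called 9.98% of all probe sets, 4.53% higher and 5.44% lower.

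**Figure D1:**
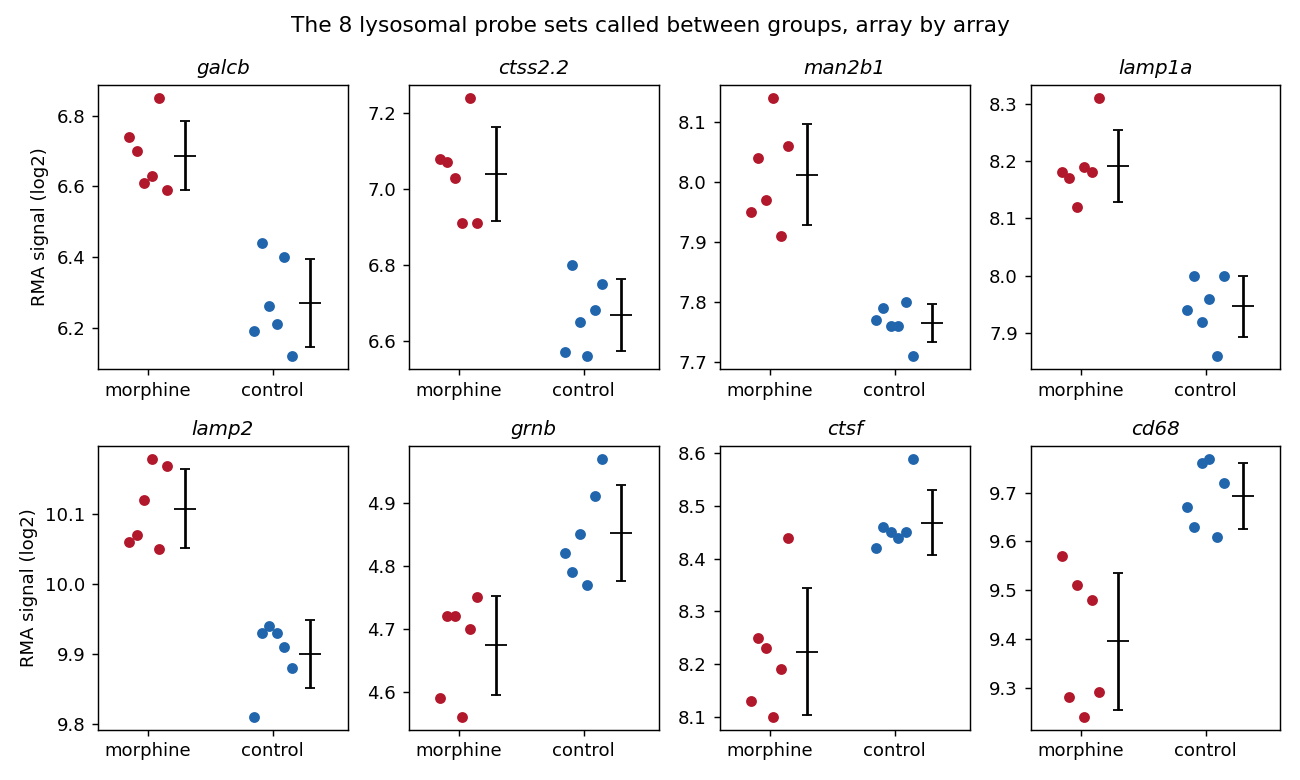
Log2 RMA signal of the 8 called lysosomal probe sets, with 1 point for each array, morphine left of control, and bars for the mean and SD (n = 6 each). The groups do not overlap in 7 panels, and in the ctsf panel morphine replicate 6 lies at 8.44, inside the control range.

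Among the hydrolases other than proteases, galcb and man2b1 rose. Galactosylceramidase splits galactose from the myelin lipid galactosylceramide. The morphine arrays ran from 6.59 to 6.85 (median 6.67) for galcb, against 6.12 to 6.44 (median 6.23) in control arrays. Every morphine array was thus above every control array, by a mean of 0.42 ± 0.07 (SE), or 1.34-fold, the lowest adjusted p of the 48 probe sets (0.00119, limma). Lysosomal alpha-mannosidase (man2b1) trims mannose from glycoproteins, and its arrays ran from 7.91 to 8.14 (median 8.01) with morphine, against 7.71 to 7.80 (median 7.76) in control arrays. The 6 control arrays were tightly grouped (SD 0.03) and lay below all 6 morphine arrays, with a difference of 0.25 ± 0.05 (SE, 1.19-fold, limma adjusted p = 0.00691). Its relative man2b2, which acts on the core mannose of N-glycans, had a fold change of 0.03 (limma adjusted p = 0.906).

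The sialidase neu3.2, included by its symbol alone, and the thioesterase ppt1 were not called. Sialidases remove sialic acid, and neu3.2 ran from 4.58 to 5.11 (median 4.85) in morphine arrays and from 4.44 to 4.74 (median 4.56) in control arrays. The groups overlapped and their means differed by 0.24, which had a limma adjusted p of 0.117, and with the replicate number as a block neu3.2 passed the threshold (limma adjusted p = 0.0207, with a range of 0.0207 to 0.351 over all alternatives). Palmitoyl-protein thioesterase 1 (ppt1), which removes fatty acids from proteins, ran from 8.03 to 8.37 with morphine and from 8.22 to 8.58 in controls, again with overlap, and its fold change of -0.21 had a limma adjusted p of 0.128 (range over all alternatives 0.0499 to 0.290). It was called with the actin 3′ to 5′ difference as a covariate (limma adjusted p = 0.0958), with replicates 1 and 2, 3 and 4, and 5 and 6 as blocks of paired numbers, chosen after seeing the data (0.0810), and without morphine replicate 5 (0.0499).

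Of 16 protease probe sets, 1 was called higher and 1 lower (12.5%, against 6.85% of all probe sets). Cathepsin S is a cysteine protease of immune cells, and zebrafish carry several paralogs. For ctss2.2 the called probe set ran from 6.91 to 7.24 (median 7.05) in morphine arrays, against 6.56 to 6.80 (median 6.66) in control arrays. The groups were apart and differed by 0.37 ± 0.06 (SE, 1.29-fold, limma adjusted p = 0.00257). The second ctss2.2 probe set ran from 5.58 to 6.07 with morphine and from 5.32 to 5.77 in controls. It overlapped between groups, with a fold change of 0.26 in the same direction and a limma adjusted p of 0.147, which became 0.0145 with the replicate block (range over all alternatives 0.00175 to 0.283).

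The paralog ctss2.1 had a fold change of 0.09 (limma adjusted p = 0.551), and ctss1, one of the dimmest probe sets, had -0.04. Among genes with a probe set on the array, ctss2.2, ctss2.1 and the cathepsin K gene ctsk followed each other in the zebrafish assembly GRCz12tu. Genes without a probe set were not considered. The within-array difference of ctss2.2 from ctss2.1 was -4.43 ± 0.09 in morphine arrays and -4.70 ± 0.13 in control arrays (SD, n = 6 each), a change of 0.28. The groups overlapped, with a lowest morphine value of -4.59 and a highest control value of -4.54. Pairs of paralogs were picked because 1 of the genes was called, so these changes are a description, and they do not compare transcript levels between genes.

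Cathepsin F, a cysteine protease of broad expression, moved the other way. The ctsf signal ran from 8.10 to 8.44 (median 8.21) with morphine, against 8.42 to 8.59 (median 8.45) in control arrays. Morphine replicate 6 alone reached the control range, and the difference was -0.24 ± 0.06 (SE, 1.18-fold lower, limma adjusted p = 0.0273). The control group held 1 array apart from the other 5, replicate 6 at 8.59, and with any 1 array left out the limma adjusted p lay between 0.00433 and 0.0700.

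Cathepsin C (ctsc), which activates serine proteases of immune cells, was the uncalled lysosomal probe set nearest to the threshold. It ran from 10.22 to 10.58 (median 10.45) in morphine arrays and from 10.13 to 10.36 (median 10.23) in control arrays. Of the 6 morphine arrays 5 exceeded all controls, replicate 4 at 10.22 being the exception, and the difference of 0.20 ± 0.07 (SE) had a limma adjusted p of 0.110, or 0.0437 with the replicate block (range over all alternatives 0.0338 to 0.286). The cathepsins with the highest signals hardly differed: cathepsin L (ctsla), a main endopeptidase of the lysosome, averaged 12.84 with morphine and 12.87 in controls, and cathepsin B (ctsba) had a fold change of 0.09. The aspartic protease ctsd, which takes part in yolk protein processing, had a fold change of -0.08, the carboxypeptidases ctsa and ctsz had 0.06 and -0.03, and legumain (lgmn), an asparaginyl endopeptidase, had 0.05. The bone-resorbing cathepsin K (ctsk), ctsll and the 2 probe sets of ctsl.1 lay between -0.11 and 0.09, and none of these was called.

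Another 3 of the called probe sets stood for proteins of the lysosomal membrane. LAMP1 and LAMP2 are its most abundant glycoproteins, and LAMP2 also takes part in fusion with autophagosomes. The lamp1a signal ran from 8.12 to 8.31 (median 8.18) in morphine arrays, against 7.86 to 8.00 (median 7.95) in control arrays. No array crossed between the groups, which differed by 0.24 ± 0.05 (SE, 1.18-fold, limma adjusted p = 0.00607). The lamp2 signal ran from 10.05 to 10.18 (median 10.10) with morphine, against 9.81 to 9.94 (median 9.92) in controls, again without overlap, with a difference of 0.21 ± 0.05 (SE, 1.16-fold, limma adjusted p = 0.0150).

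The paralog lamp1b did not follow lamp1a. It ran from 6.62 to 7.13 (median 6.85) in morphine arrays and from 6.86 to 7.08 (median 7.02) in control arrays, and its fold change of -0.15 had a limma adjusted p of 0.400. The within-array difference of the lamp1a from the lamp1b signal was 1.35 ± 0.17 with morphine and 0.96 ± 0.12 in controls (SD, n = 6 each), and its lowest morphine value, 1.17, was above its highest control value, 1.08. The difference of lamp1a from lamp2 changed by 0.04.

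CD68 is a glycoprotein of late endosomes and lysosomes that is abundant in macrophages. Its probe set ran from 9.24 to 9.57 (median 9.39) in morphine arrays, against 9.61 to 9.77 (median 9.70) in control arrays. All morphine arrays lay below all control arrays, and the difference was -0.30 ± 0.06 (SE, 1.23-fold lower, limma adjusted p = 0.0113). The name cd68 comes from the array annotation, while the study's own gene naming gives this probe set as lamp2. The probe set annotated as lamp2 moved in the opposite direction, so which gene fell rests on that annotation.

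Macrophage markers were measured beside it. None of 9 macrophage probe sets was called by limma without the replicate block (3 at an unadjusted p under 0.05, 0 by SAM), where 6.85% of all probe sets were. Their median fold change was -0.10, with 6 below 0 and 3 above: lcp1 at 0.10 and the 2 spi1b probe sets at 0.05 and 0.06. Their summed linear signal ran from 402 to 499 in morphine arrays and from 484 to 525 in control arrays. Most of this sum came from coro1a, lcp1 and cxcr4b. Whether these genes mark only macrophages here was not tested. The marco, ptprc and csf1ra probe sets were dim, averaging 3.57, 3.81 and 3.89 with morphine and 3.67, 3.91 and 3.89 in controls. With the block, which called 9.98% of all probe sets, 2 of the 9 were called, both lower. These were the chemokine receptor gene cxcr4b (-0.23, limma adjusted p = 0.0519, range over all alternatives 0.0132 to 0.245) and 1 probe set of the actin-binding coro1a (-0.43, limma adjusted p = 0.0663, range over all alternatives 0.0564 to 0.422). Of 8 probe sets listed for neutrophils 1 was called (12.5%), nccrp1 at -0.23, and whether nccrp1 marks neutrophils here was not tested. It was the brightest of the 8, averaging 8.44 with morphine and 8.67 in controls. Fold changes were above 0 for 3 of the 8 and below 0 for 5. The neutrophil sums ran from 684 to 783 with morphine and from 749 to 859 in controls. Both sums overlapped between groups, and the part of these cells in the cd68 difference was not tested.

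The sterol carriers were not called. NPC1, the membrane transporter that takes cholesterol from NPC2, had a fold change of 0.12 (limma adjusted p = 0.273), and npc2.1 had 0.07. The tetraspanin cd63 of late endosomes had 0.10.

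Granulins are growth factor precursors that lysosomal proteases cut into smaller peptides. The grnb signal ran from 4.56 to 4.75 (median 4.71) in morphine arrays, against 4.77 to 4.97 (median 4.84) in control arrays. The groups did not overlap, and the difference was -0.18 ± 0.05 (SE, 1.13-fold lower, limma adjusted p = 0.0726). This was the least stable of the 8 calls: the probe set is dim, and it was called in 5 of the 12 fits with 1 array left out, with limma adjusted p up to 0.163. It was lost without control replicate 1, 3, 5 or 6, or without morphine replicate 1, 2 or 4. The call was also lost without the 3 arrays that stood apart (limma adjusted p = 0.147). With a highest signal of 4.97, the grnb probe set was removed by the dim-signal filter. The granulin gene grna had a fold change of 0.05 (limma adjusted p = 0.814). Its probe set was dimmer still, averaging 3.73 with morphine and 3.68 in controls, where the lowest signal of all was 2.72. Prosaposin (psap), the precursor of activators of sphingolipid hydrolases, averaged 12.43 with morphine and 12.36 in controls.

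**Figure D2:**
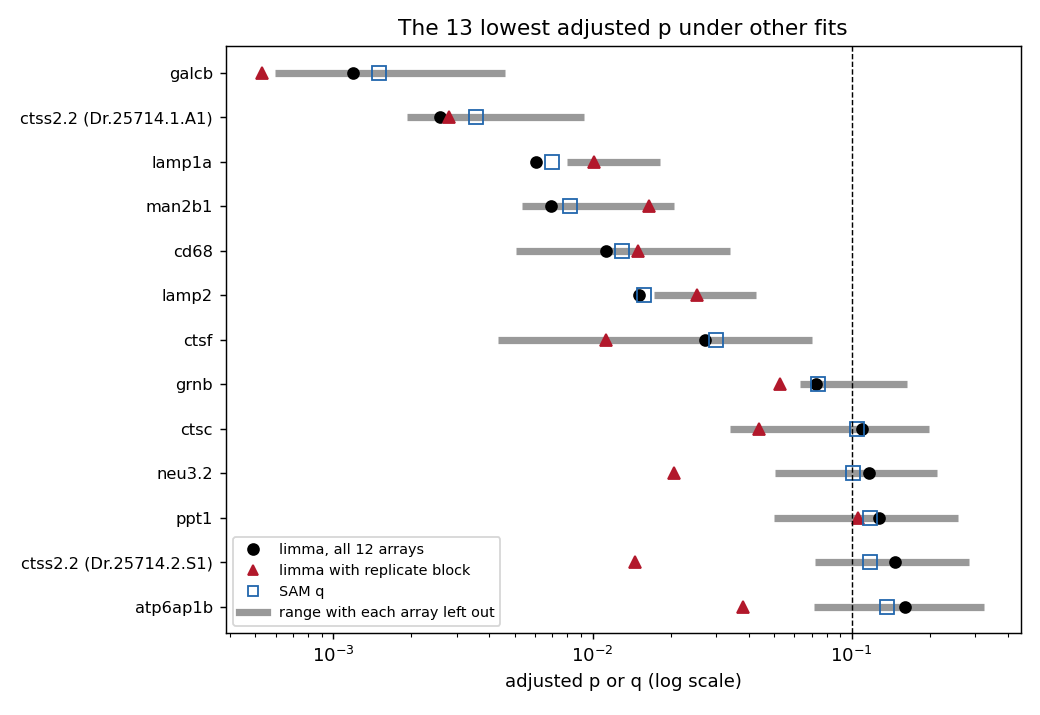
Adjusted p or SAM q (log axis) of the 13 lysosomal probe sets with the lowest adjusted p, with black points for limma on all 12 arrays, triangles for the replicate block, open squares for SAM, grey bars for the range over the 12 fits with 1 array left out, and the threshold of 0.10 as a dashed line. Among the 8 called probe sets only the bar of grnb, reaching 0.163, crosses the line.

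None of the 16 V-ATPase probe sets was called by limma (6.85% of all were) and none by SAM (7.28% of all). In a set of 16 a count of 0 is near those shares. An unadjusted p under 0.05 was found for 1 (6.25%, against 16.6% of all). Their fold changes ran from -0.23 to 0.10, with 7 above 0, 9 below, a median of -0.02 and a median size of 0.07. The 9 probe sets of V1, the part that hydrolyses ATP, stood for 9 genes and had fold changes of -0.09 to 0.04 and limma adjusted p of 0.624 or more. The 95% intervals of these 9 lay between -0.26 and 0.19. The V1 probe sets were the catalytic-ring subunit B (atp6v1ba and atp6v1b2), the stalk subunits C (atp6v1c1a and atp6v1c1b), D, E, F and G, and the regulatory subunit H.

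**Figure D3:**
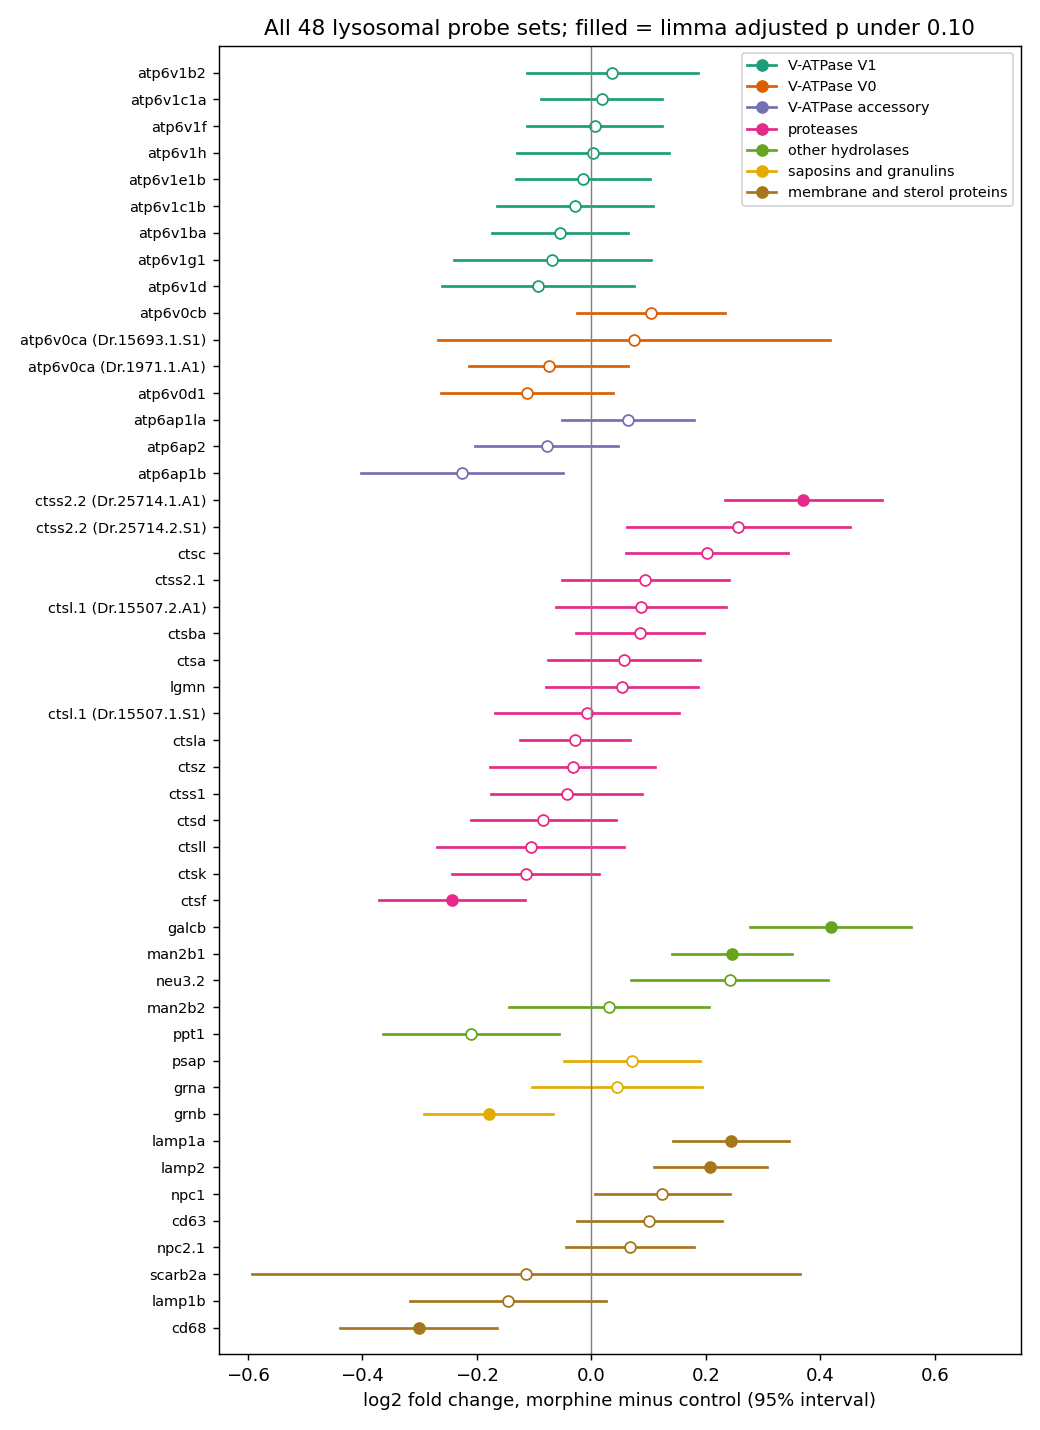
Fold change (log2, morphine minus control) of all 48 lysosomal probe sets with 95% intervals from limma, coloured by role, with called probe sets as filled points. The 16 V-ATPase probe sets lie between -0.23 and 0.10, and the 8 called probe sets, from -0.30 to 0.42, are all in the other groups.

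The V-ATPase probe set with the lowest p stood for atp6ap1b, an accessory subunit of V0 needed for assembly of the pump. It was named after the values were seen. It ran from 6.94 to 7.42 (median 7.24) in morphine arrays and from 7.22 to 7.51 (median 7.43) in control arrays. The groups overlapped, and morphine replicates 2 and 4, at 6.95 and 6.94, were the only arrays below 7.00. The difference of -0.23 ± 0.08 (SE) had a limma adjusted p of 0.160, or 0.0381 with the replicate block (range over all alternatives 0.0381 to 0.325). It was also called without the 3 arrays that stood apart (0.0986), without control replicate 2 (0.0976), without morphine replicate 3 (0.0718) and with blocks of paired numbers (0.0965, limma adjusted p), and the count of called V-ATPase probe sets was then 1. Of the other accessory proteins, the prorenin receptor atp6ap2 had a fold change of -0.08 and atp6ap1la had 0.06.

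The V0 part, the proton channel, was covered by 4 probe sets of 3 genes. Subunit c forms its rotating ring, and the zebrafish genes atp6v0ca and atp6v0cb encode it. The fold change was 0.10 for atp6v0cb and -0.11 for atp6v0d1, the subunit that joins the ring to the stalk, and neither was called. The 2 probe sets of atp6v0ca gave 0.08 and -0.07 (limma adjusted p = 0.880 and 0.637).

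**Figure D4:**
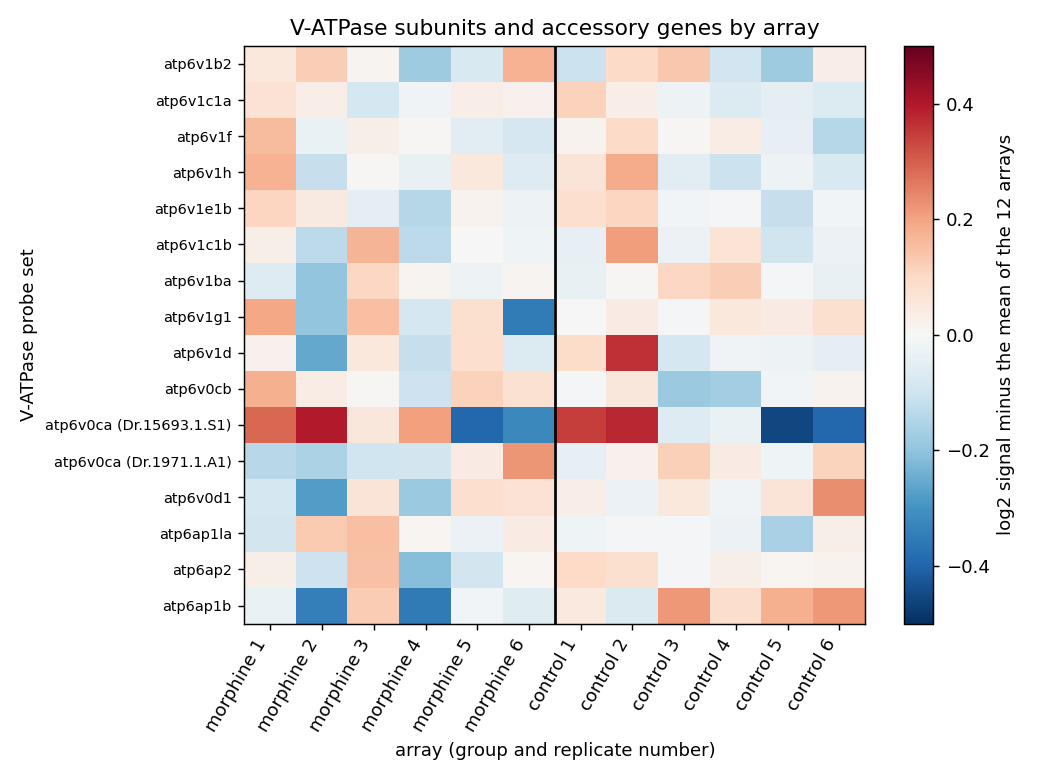
Deviation of each V-ATPase probe set from its mean over all 12 arrays (log2), by array, morphine arrays left of control arrays. The fold changes behind it run from -0.23 to 0.10, and 1 atp6v0ca probe set is spread far more within each group than the others.

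The widest spread within a group among the lysosomal probe sets was that of scarb2a, followed by 1 of the 2 atp6v0ca probe sets. SCARB2 carries beta-glucocerebrosidase to the lysosome, and scarb2a had a within-group SD of 0.48, above 99.5% of all probe sets. Its morphine arrays ran from 5.97 to 7.02 (median 6.59), against 5.98 to 7.30 (median 6.61) in control arrays, a fold change of -0.11 with a limma adjusted p of 0.867. Part of that spread was shared by arrays with the same replicate number in the 2 groups, with the widest gap at number 6, 6.84 with morphine and 7.30 in control. For replicates 1 and 2, 3 and 4, and 5 and 6, the means were 6.02, 6.59 and 6.93 in morphine arrays and 6.04, 6.61 and 7.23 in control arrays.

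One of the 2 atp6v0ca probe sets had the same layout the other way up. Its within-group SD was 0.34, above 98.4% of all probe sets, and the means of the same 3 pairs of replicates were 10.00, 9.78 and 9.30 with morphine and 10.02, 9.61 and 9.23 in controls. The other atp6v0ca probe set did not share this layout. Its means for the same pairs rose with morphine, at 9.61, 9.66 and 9.89, and were 9.75, 9.84 and 9.81 in controls. Its single arrays ran from 9.60 to 9.98 in the morphine group and from 9.72 to 9.88 in the control group. The sources used here do not say what the replicate numbers stand for. The mean of the 7 hybridization spike-in probe sets, which hold no zebrafish RNA, was 8.24, 8.38 and 9.03 for the same pairs of morphine arrays and 8.48, 8.19 and 8.89 for those of control arrays. Its part in the pattern was not tested.

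**Figure D5:**
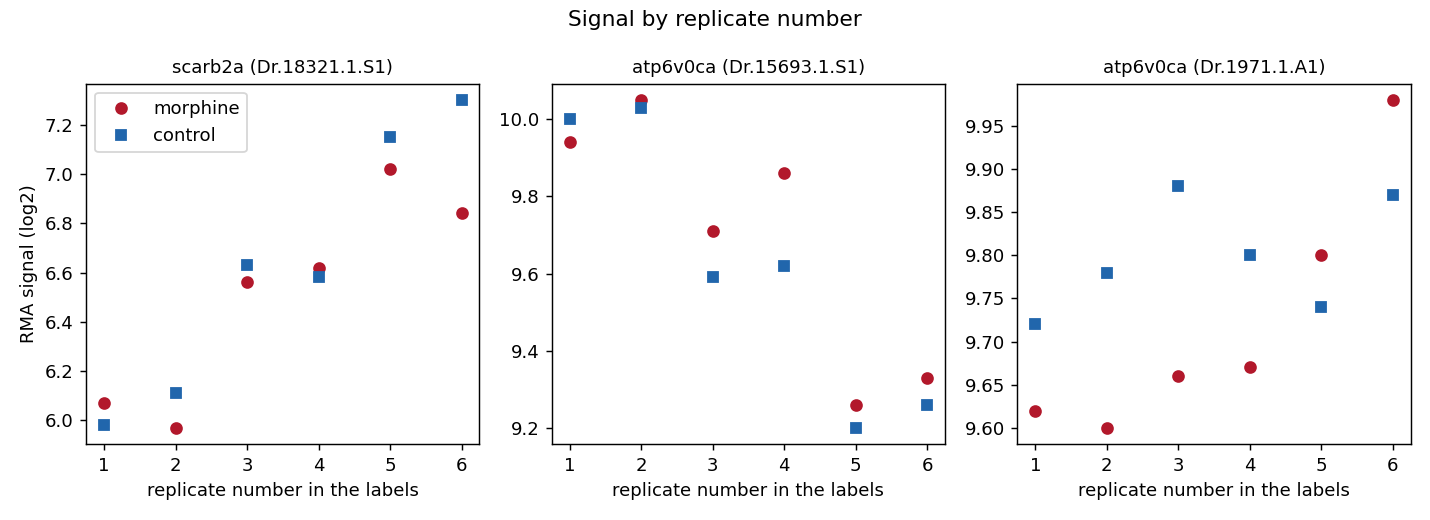
Log2 RMA signal of scarb2a and of both atp6v0ca probe sets against the replicate number of the labels, with 1 point for each array. For scarb2a and for 1 atp6v0ca probe set the signals of both groups shift with the number. In replicate 6, however, scarb2a is 6.84 with morphine and 7.30 in control. The other atp6v0ca probe set lies between 9.60 and 9.98, with its morphine signals highest in replicates 5 and 6.

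The lysosomal genes also varied more among morphine arrays than among control arrays. The SD was larger with morphine in 37 of 48 probe sets (77.1%), against 63.1% of all probe sets. The lowest morphine array was replicate 4 for 21 of them and replicate 2 for 10, together 64.6% against 33.9% of all probe sets. Replicates 2 and 4 were singled out from these same values, so the 64.6% is a description and not a test. The median deviation of the 48 probe sets from their morphine mean was -0.08 in replicate 4 and -0.06 in replicate 2, while the medians of the other 4 morphine arrays lay between 0.02 and 0.05. The 48 probe sets share each array, so they are not separate measurements of it.

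Genes around the lysosome were read from 3 lists of symbols that are not among the 48. Of 37 probe sets for lysosomal delivery and signalling, 1 was called (2.7%, against 6.85% of all), with a median fold change of 0.01. This was lamtor4, a subunit of the Ragulator complex that anchors mTORC1 at the lysosome, at 7.85 to 8.21 (median 8.11) in morphine arrays against 8.32 to 8.53 (median 8.46) in control arrays. The groups were apart, and the difference was -0.38 ± 0.06 (SE, limma adjusted p = 0.00214). With the replicate block flcn, the folliculin gene, was called too (0.18, limma adjusted p = 0.0991, range over all alternatives 0.0855 to 0.502). None of 22 autophagy probe sets was called by limma without the block (3 at an unadjusted p under 0.05, 0 by SAM). In a set of 22 a count of 0 is near the 6.85% of all probe sets. The median fold change of the 22 was -0.01. With the block 1 was called, atg3, the enzyme that joins Atg8 proteins to lipid (-0.21, limma adjusted p = 0.0829, range over all alternatives 0.0621 to 0.232).

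Of 33 probe sets for further lysosomal proteins, 2 were called higher and 2 lower (12.1% together, against 6.85% of all), with a median of 0.00. The acid phosphatase acp5a ran from 10.36 to 10.44 with morphine and from 10.60 to 10.70 in controls, a difference of -0.23 ± 0.04 (SE, limma adjusted p = 0.00369). The membrane protein gene cln3, lost in juvenile Batten disease in humans, ran from 6.10 to 6.20 with morphine and from 6.21 to 6.53 in controls, a difference of -0.25 ± 0.06 (SE, limma adjusted p = 0.0146). Both were thus lower in every morphine array than in every control array. The heparan sulfatase gene sgsh, whose groups overlapped, had a fold change of 0.27 ± 0.07 (SE, limma adjusted p = 0.0460, range over all alternatives 0.0187 to 0.163). A lysosomal membrane glycoprotein gene, glmp, had 0.19 ± 0.06 (SE, limma adjusted p = 0.0776, range over all alternatives 0.0661 to 0.364). With 1 array left out, sgsh was called in 11 of the 12 fits and glmp in 4. With the replicate block 2 of the 33 were called higher and 5 lower, where 9.98% of all probe sets were called. The 3 added were the protease gene dpp7 (-0.53, limma adjusted p = 0.00580), the chitobiase gene ctbs (-0.40, limma adjusted p = 0.0437) and ostm1, which encodes the partner of a lysosomal chloride transporter (-0.21, limma adjusted p = 0.0859). Over all alternatives the limma adjusted p ran from 0.00580 to 0.574 for dpp7, from 0.0335 to 0.328 for ctbs and from 0.0520 to 0.239 for ostm1. This dpp7 probe set was widely spread, with an SD of 0.63 with morphine and 0.58 in controls. The other, brighter dpp7 probe set had -0.17 and was not called (limma adjusted p = 0.233, or 0.101 with the block). Over the 3 lists 5 of 92 probe sets were called (5.43%, against 6.85% of all), 2 higher and 3 lower. The replicate block gave 10 of 92, 3 higher and 7 lower, where it called 9.98% of all probe sets.

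The called lysosomal genes were scattered in the gene order of GRCz12tu. Among the 5 array genes on each side of the 8 called genes, 5 of 80 were called (6.25%), against 748 of 8723 array genes with a position (8.58%). The only called direct neighbour in this order of array genes was trappc11, a trafficking complex gene, beside ctsf. The trappc11 fold change was 0.21 (limma adjusted p = 0.0671) where ctsf had -0.24.

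Markers of other tissues also differed between the groups of pools. Of 18 probe sets for the yolk syncytial layer and liver, 6 were called lower and 1 higher (38.9%, against 6.85% of all probe sets), the higher one being apoea at 0.56. The lower ones were tfa, ambp, rbp4 and the fibrinogen genes fga, fgb and fgg. Of the 18 fold changes 5 were above 0 and 13 below, with a median of -0.11. The brightest probe sets, apoa1a, apoa2 and apoeb, had -0.03, -0.11 and -0.01 and were not called. The summed linear signal of the 18 ran from 56839 to 60219 in morphine arrays and from 60012 to 63572 in control arrays. Of 14 notochord probe sets 2 were called higher (ntd5 at 0.19 and cav1 at 0.17) and 1 lower (a second cav1 probe set at -0.23), together 21.4%. The cav1 probe set called higher was dim, averaging 3.54 with morphine and 3.37 in controls, beside 10.49 and 10.72 for the lower one. The other 2 cav1 probe sets had -0.28 and -0.11 and were not called (limma adjusted p = 0.108 and 0.833). The notochord sums ran from 3511 to 3850 with morphine and from 3864 to 4337 in controls. The sums overlapped between groups for the yolk syncytial layer and liver, but not for the notochord. The 2 brightest notochord probe sets, with control means of 10.72 and 10.31, both stood for cav1 and made up most of the notochord sum. Of the 14 notochord fold changes 8 were above 0 and 6 below, with a median of 0.03. Of 7 ionocyte probe sets 2 were called (28.6%), both lower (ca2 at -0.28 and cahz at -0.27). Whether cahz marks ionocytes here was not tested. Of 6 pigment cell probe sets 2 were called (33.3%), both lower (pmelb at -0.48 and dct at -0.29). Signs were divided in both lists, with 4 ionocyte fold changes above 0 and 3 below, and 3 pigment cell fold changes above 0 and 3 below. The second ca2 probe set had -0.09 (limma adjusted p = 0.713). With the replicate block 1 more was called in each of these lists, both higher. These were atp1b1b (0.42, limma adjusted p = 0.0645, range over all alternatives 0.0645 to 0.303) and gch2 (0.22, limma adjusted p = 0.0256, range over all alternatives 0.0191 to 0.427). The other gch2 probe set had -0.02 (limma adjusted p = 0.960 without the block). None of 3 hatching gland probe sets was called by limma (1 at an unadjusted p under 0.05, 0 by SAM), and the sums of these 3 lists overlapped between groups. The part of these tissues in the lysosomal differences was not tested.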

How the data were processed

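RNA from 6 morphine and 6 control pools was hybridized to Affymetrix Zebrafish Genome Arrays. The authors deposited log2 values after RMA, which corrects background, quantile-normalizes the arrays and summarises probes into probe sets; such values have no depth, and the number of arrays limits their precision. No source used here named a genome build or an RMA version. Of 15617 probe sets, 115 Affymetrix controls were left out. Gene names came from the array annotation, and all 48 symbols were current in GRCz12tu.

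Groups were compared with limma 3.58.1 (R 4.3.3, eBayes, no covariate) over 15502 probe sets, with Benjamini-Hochberg adjustment and the false discovery rate of 0.10 of the study's methods. SAM, the test of those methods, was run with 100 permutations at q under 0.10. Exact permutation tests used all 924 splits. Intervals are 95%. The procedure was tested on simulated data.

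The labels number the replicates 1 to 6 in both groups. Residual correlations of the 6 same-numbered pairs were 0.225 to 0.471 (threshold 0.1, mean over different numbers -0.06). Only 3 of the arrays correlated best with their own number. The main fit had no block. A fit with the replicate number as a block was run as an alternative, and the blocked value is given where it changes a call.

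Named with values were called and non-overlapping probe sets, others of the same genes, the 4 uncalled with the lowest adjusted p, the 3 brightest and 3 dimmest, the most spread, and paralogs of called genes; the rest were chosen after their values were seen. The lysosomal genes and all lists were chosen with earlier results of these data known. Alternatives changed the test, variance model, array weights, normalization, dim-signal filter, control probe sets, pairing, RNA quality covariate, threshold and arrays; a block of paired numbers was added after the data were seen.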

Additional observations from a re-analysis of the deposited data

Results flagged for a closer look

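In each of the 96 groups (48 lysosomal probe sets in 2 groups) the highest and lowest array was compared with the rest by Dixon's ratio of the gap to the range, at its 95% critical value. Chance flags about 1 in 20 groups, or 4.8 of 96, and 3 were found, all in the control group. For ctsf, control replicate 6 had a log2 signal of 8.59, beside 8.42 to 8.46 in the other 5 control arrays (ratio 0.766). For atp6ap1la, control replicate 5 had 3.76, beside 3.89 to 3.95 (ratio 0.690). For atp6v0d1, control replicate 6 had 9.42, beside 9.16 to 9.25 (ratio 0.631).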

How the results depend on the processing

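Of 745 values of the 30 named probe sets under the alternatives, 691 kept direction and side of the threshold, and none of the 8 called probe sets changed sign. Counts below are of called probe sets, and the cause of each change was not tested. Higher lysosomal probe sets numbered 5, or 8 with the replicate block and 8 with blocks of paired numbers, an alternative chosen after seeing the data (5 to 6 with 1 array left out). Lower ones numbered 3, or 5 with blocks of paired numbers (2 to 4 with 1 array left out). The V-ATPase count was 0, or 1 with either block or without the 3 arrays that stood apart, and 0 to 1 with 1 array left out (1 without control replicate 2 or morphine replicate 3). The pathway lists together had 5, 10 with either block, 8 with the actin covariate, and 3 (without control replicate 4) to 8 (without morphine replicate 1) with 1 array left out. Among single lysosomal probe sets, the replicate block changed the call of ctsc, neu3.2, the second ctss2.2 probe set and atp6ap1b and of no other. The sign turned for 4 uncalled probe sets. With 1 array left out, the spread-out atp6v0ca probe set ran from -0.0075 to 0.16, scarb2a from -0.24 to 0.021, man2b2 from -0.017 to 0.10 and grna from -0.0090 to 0.081, and man2b2 was -0.033 without the 3 arrays. The call of grnb was lost in 7 of the 12 fits with 1 array left out (those lacking replicate 1, 3, 5 or 6 of the controls, or 1, 2 or 4 of the morphine arrays). It was also lost without the 3 arrays that stood apart (limma adjusted p = 0.147). The precision is set by 6 arrays a group.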
